A study of Mus musculus with 14 samples.

Results

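Genes of homologous recombination and Fanconi repair were followed in germinal centre B cells with 0, 1 or 2 floxed copies of Crebbp. This gene encodes CBP, an enzyme that acetylates histones and other proteins and helps factors such as CREB to activate transcription. The set holds 31 genes, listed by name and role with no threshold on measured values, of 18193 genes with a named single-gene probe set. Each gene was read on its brightest single-gene probe set, by the mean over all arrays. Of the 31 members 29 had such a probe set and all 29 passed the filter on dim values, while Xrcc2 and Rbbp8 were not analysed here.

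Expression was measured on 14 Affymetrix mouse arrays, 1 per mouse, from splenic cells sorted as B220+CD95+PNA+. All mice carried Cg1-Cre, a Cre recombinase expressed from the immunoglobulin gamma 1 locus, so that floxed DNA recombines in B cells after activation. The genotypes were Crebbp+/+ Cg1-Cre (WT, n = 4, 1 male), Crebbpfl/+ Cg1-Cre (HET, n = 5, 2 males) and Crebbpfl/fl Cg1-Cre (KO, n = 5, 3 males), on a C57BL/6x129Sv background. The mice were 8 to 12 weeks old, were immunised with sheep erythrocytes on day 0 and day 5, and were killed on day 12. The comparison asks whether the loss of 1 or both copies of Crebbp changes the expression of the repair genes. The values are log2 intensities, so a difference of 1 is a doubling, and the number of arrays limits their precision.

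Homologous recombination repairs a broken chromosome by copying the intact sister DNA. MRE11, RAD50 and NBN open the break and trim its ends, RPA coats the single strand, and BRCA1, PALB2 and BRCA2 prepare that strand to search for the matching sequence. The Fanconi proteins unhook crosslinked strands and hand the break to the same machinery, and ATM and ATR signal the damage through CHK2 and CHK1. Germinal centre B cells divide fast while their antibody genes are cut and mutated, which makes them users of these pathways.

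The cells and libraries were checked first. Of 4 Crebbp probe sets the most changed had means of 10.29 ± 0.08 (SD, n = 4) in WT, 9.95 ± 0.17 (SD, n = 5) in HET and 9.42 ± 0.10 (SD, n = 5) in KO. The KO minus WT values of the others were -0.47, -0.41 and -0.30, all negative. In limma over all probe sets only the most changed passed (adjusted p = 0.0017). The others had adjusted p of 0.095, 0.136 and 0.703. The brightest, at -0.41, had means of 12.41 in WT, 12.27 in HET and 12.04 in KO. The share of sorted cells that had lost Crebbp was not analysed here. All 11 named germinal centre B cell markers lay above the filter of 6.43 log2 units, and other cell types were checked in the same way. Above that level were also 3 of 9 named T cell markers (Cd3e, Cd8a and Cd247), 4 of 13 macrophage, monocyte and neutrophil markers (Lyz2, C1qb, S100a8 and S100a9), 3 of 5 dendritic cell markers, 4 of 5 plasma cell markers, 5 of 6 naive and marginal zone markers and 0 of 4 erythroid markers. The mean of the T cell list ran from 5.83 to 6.22 in WT, 5.75 to 6.36 in HET and 5.82 to 6.55 in KO, and that of the myeloid list from 5.75 to 6.81, 5.71 to 6.53 and 5.90 to 6.75, so the genotypes overlapped. In KO against WT limma called 1 germinal centre marker, Rgs13, lower at -0.62 (SE 0.12, adjusted p = 0.018), with 9 of the 11 negative and list means of 12.39 to 12.46 in WT, 12.33 to 12.42 in HET and 12.15 to 12.42 in KO. It called 1 naive and marginal zone marker, Dtx1, lower at -0.41 (SE 0.10, adjusted p = 0.0496), with 4 of the 5 tested negative. The means of that list were 8.92 to 9.18 in WT, 8.55 to 9.16 in HET and 8.51 to 9.05 in KO. Limma also called 1 plasma cell marker, Sdc1, higher at 0.81 (SE 0.19, adjusted p = 0.0404), while 3 of the 4 tested were negative. The means of the plasma cell list were 9.06 to 9.22 in WT, 8.98 to 9.32 in HET and 8.91 to 9.31 in KO. The part of these markers in the values of the repair genes was not tested. For the Gapdh and beta-actin controls the 3′ minus 5′ difference, a measure of RNA integrity, overlapped as well (Gapdh 0.59 to 0.72 in WT, 0.61 to 0.66 in HET and 0.59 to 0.74 in KO). For beta-actin it was 0.54 to 0.69 in WT, 0.61 to 0.82 in HET and 0.54 to 0.82 in KO. KO 3 had the highest difference of all arrays for both controls, at 0.736 and 0.820, with HET 4 next for beta-actin at 0.819. It also had the lowest germinal centre list mean, 12.15. The part of RNA integrity in the values of the repair genes was not tested. KO 3 correlated least with the rest (median 0.979) and WT 4 is the only male WT mouse, so results are also given without these arrays. In bulk samples fewer cells of a type and less RNA per cell cannot be told apart.

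None of the 29 repair genes passed the test when both copies of Crebbp were floxed. On their brightest probe sets all differences were below 1.5-fold in size. In KO against WT limma called 0 of 29 members at a Benjamini-Hochberg adjusted p of 0.05, where 2.44% of the 10225 genes tested were called. The smallest adjusted p of a member was 0.33. At an unadjusted p under 0.05 there were 2 members, or 6.90%, against 13.1% of all genes. The changes ran from -0.19 for Brca1 to 0.23 for Rad54b, with 16 of 29 positive (49% of all genes). The count was 23 without WT 4, where the median of all genes was 0.024, and 12 both without KO 3 and with the mean of all probe sets of a gene. Their median was 0.0071 and the median size was 0.053, against a median of -0.0027 and a median size of 0.084 over all genes tested. The 95% interval of every member lay within a 1.5-fold change in either direction (0.58 log2 units), with the widest bounds at 0.51 for Xrcc3 and -0.39 for Brca1. Over all genes tested 87.7% had such an interval. These intervals belong to the brightest probe set of each gene and the fit over all 14 arrays.

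**Figure D1:**
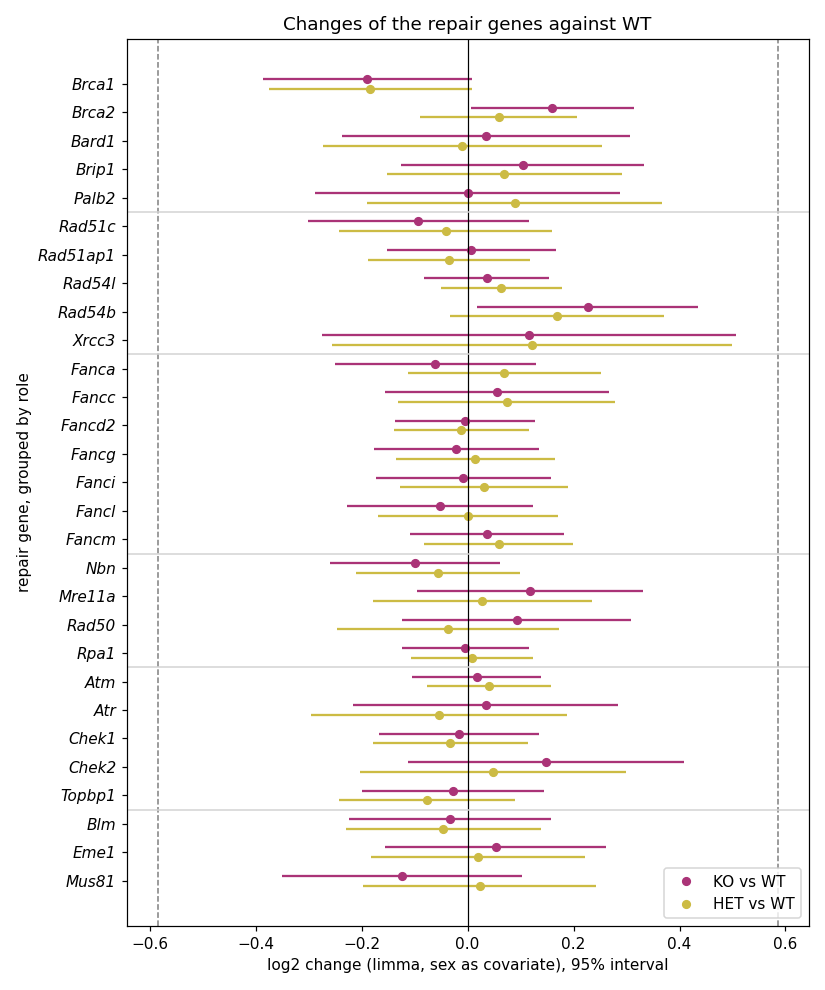
The log2 change of each of the 29 repair genes against WT is plotted for KO and for HET, as points with their 95% interval from limma, with sex as a covariate. Grey lines separate the roles, and dashed lines mark a 1.5-fold change. All intervals lie between the dashed lines, and in KO only those of Brca2 and Rad54b lie wholly on 1 side of 0, before adjustment for the number of genes.

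**Figure D2:**
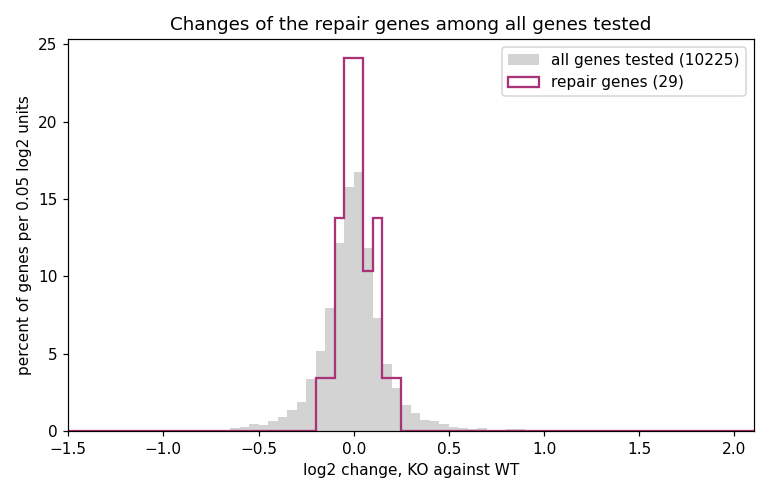
The percent of genes per 0.05 log2 units of change in KO against WT is drawn for all 10225 genes tested (grey) and for the 29 repair genes (outline). The repair genes end at -0.19 and 0.23, with a median of 0.0071, and the grey bars reach further on both sides.

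BRCA1, BRCA2 and their partners differed in sign. Brca1 encodes the ubiquitin ligase and scaffold that starts the repair of breaks in replicating cells. Its WT values were 11.15, 11.26, 11.36 and 11.47, its HET values 11.06, 11.15, 11.05, 11.19 and 11.22, and its KO values 10.92, 11.20, 11.10, 11.11 and 11.37. The HET and KO ranges overlap the WT range, with 2 of 5 HET and 3 of 5 KO arrays below the lowest WT array. The KO change was -0.19 (SE 0.09, limma adjusted p = 0.408) and the HET change -0.18 (SE 0.09, adjusted p = 1.00), so that KO and HET differed from each other by -0.0056 (SE 0.08). KO and HET are compared here with the same WT arrays. The other Brca1 probe sets above the filter, a pair of dimmer ones, had differences of -0.16 (SE 0.15) and -0.12 (SE 0.15) in KO and of 0.070 (SE 0.15) and 0.066 (SE 0.15) in HET, so the HET differences had the opposite sign there.

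Brca2, which acts at the strand exchange step, was the only member whose KO and WT arrays did not overlap on the brightest probe set. It read 10.44, 10.59, 10.59 and 10.58 in WT, 10.63, 10.54, 10.66, 10.63 and 10.56 in HET and 10.62, 10.73, 10.90, 10.63 and 10.63 in KO. The gap between the groups was narrow, from 10.59 to 10.62, and the highest KO array was KO 3. Among all genes tested 2.87% had KO above WT without overlap and 3.65% had KO below. The KO change of Brca2 was 0.16 (SE 0.07, 1.12-fold, limma adjusted p = 0.357), the HET change 0.059 (SE 0.07) and the change per floxed allele 0.081 (SE 0.03, adjusted p = 0.291). With 1 array left out the KO change ran from 0.087 to 0.19.

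Of the partners in KO, Bard1, which forms the ligase with BRCA1, had a difference of 0.035 (SE 0.13), the helicase gene Brip1 one of 0.10 (SE 0.11) and Palb2, the bridge between BRCA1 and BRCA2, one of 0.00051 (SE 0.13). Palb2 and Bard1 varied most between arrays of 1 genotype after Xrcc3, with a residual SD of 0.21 and 0.19. Palb2 ran from 8.65 in KO 3 to 9.42 in KO 5, from 8.97 to 9.45 in HET and from 8.86 to 9.18 in WT, so the ranges overlapped.

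Promoter sequence of Brca1, Brca2 and Rad51c is shown because CBP binds CREB, a factor that recognises the cAMP response element TGACGTCA, and these members carry it or copies of its first letters. RefSeq for GRCm38.p6 gave the 250 bases before an annotated start for 25 of the 29 members, and Rad54b, Fancd2, Nbn and Rad50 had no entry. The Brca1 window lies on the minus strand at chr11:101551956-101552205, just outside the gene. Its capitals mark 3 copies of TGACG, at -198, -119 and -19 from the start, and a CCAAT box at -86.
Brca1 promoter: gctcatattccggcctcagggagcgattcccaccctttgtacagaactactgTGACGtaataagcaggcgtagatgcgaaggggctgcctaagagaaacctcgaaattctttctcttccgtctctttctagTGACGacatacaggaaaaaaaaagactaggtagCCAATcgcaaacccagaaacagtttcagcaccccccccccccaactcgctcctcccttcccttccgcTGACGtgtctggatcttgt
Brca2 and Rad51c hold the full element, in capitals below with its flanks. In Brca2 it begins at -20, in the stretch at chr5:150522590-150522619 on the plus strand. In Rad51c it begins at -45 from the more downstream of 2 annotated starts, in the stretch at chr11:87404533-87404562 on the minus strand. Both stretches lie inside the outermost annotated bounds of their gene.
Brca2 element: tcgcggggtcaTGACGTCAcgggcagagcg
Rad51c element: cgccgcgcgtgTGACGTCAcgccactgacc

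The letters were searched on both strands, and a gene was counted if any of its annotated windows matched. TGACGTCA was found in 2 of 25 members, Brca2 and Rad51c, and in 3.24% of the 8342 tested genes with an entry (1.77% of 27018 genes in the RefSeq table). Its part TGACG, which the full element contains, was found in 11 of 25 members and in 32.1% of tested genes (19.8% of the table). The E2F letters TTTCCCGC were found in Brca2, Bard1, Fancg and Chek2, 4 of 25 members, and in 2.22% of tested genes (1.03% of the table), and TTTGGCGC in 0 members and 1.01% (0.485% of the table). CCAAT was found in 13 members and 41.0% of tested genes (37.5% of the table), and the CHR letters TTTGAA in 1 member, Bard1, and 12.5% (18.3% of the table). The genes with the full element had KO differences of opposite sign, 0.16 for Brca2 and -0.093 for Rad51c. The 11 members with TGACG had a median KO change of 0.0071 and the 14 without it 0.0087. For TTTCCCGC the medians were 0.091 in 4 members and 0.00051 in 21, and for CCAAT 0.036 in 13 and -0.012 in 12, as descriptions with no test. These matches describe letters in a window and are not measured binding sites.

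The genes of strand exchange had 4 positive and 1 negative change in KO, none of which passed. Of all genes tested 49% were positive in KO and 2.44% were called. Rad54b, which encodes a DNA translocase of the RAD54 family, had the smallest p of the 29 members. Its WT values were 10.23, 10.27, 10.21 and 10.54, its HET values 10.41, 10.34, 10.38, 10.65 and 10.66, and its KO values 10.47, 10.46, 10.65, 10.64 and 10.56. The 3 female WT arrays lay below all HET and KO arrays, and the male WT 4 lay among them, above KO 1 and KO 2. This split was picked after the values were seen, and how many of all genes have it was not computed. The change was 0.23 (SE 0.10, 1.17-fold, limma adjusted p = 0.33) in KO and 0.17 (SE 0.09, adjusted p = 1.00) in HET. Without WT 4 the KO change was 0.34 and the adjusted p 0.137, and among females alone it was 0.41. Rad54b and Brca2 were also the members with the smallest p for the change per floxed allele, which was 0.11 (SE 0.05, adjusted p = 0.295) for Rad54b.

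Rad54l, the main RAD54 translocase, showed a difference between its probe sets. On the brightest the spread within a genotype was the smallest of all members (residual SD 0.051), and the KO change was 0.036 (SE 0.05) and the HET change 0.064 (SE 0.05). On the dimmest of its 4 probe sets the values were 7.78, 7.38, 7.02 and 7.83 in WT, 8.14, 7, 7.52, 8.5 and 7.95 in HET and 8.12, 8.33, 8.32, 8.46 and 8.23 in KO. On that probe set all KO arrays lay above all WT arrays, and HET spread over both ranges. Of all genes tested, each on its brightest probe set, 2.87% had KO above WT without overlap. The share over dimmer probe sets was not computed. The KO change on this dimmest probe set was 0.67 (SE 0.24, unadjusted p = 0.0147, limma adjusted p = 0.467 over all probe sets). The other 2 probe sets of Rad54l had differences of -0.030 (SE 0.08) and -0.062 (SE 0.07). Which transcripts each probe set reads was not analysed here.

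Xrcc3, which acts with RAD51C, was the most variable member, with a residual SD of 0.29, with the farthest value in KO 3. Its KO values were 9.33, 9.34, 10.06, 9.09 and 8.98, with KO 3 highest, against 9.13 to 9.38 in WT and 9.19 to 9.58 in HET. Its second probe set had a difference of -0.023 (SE 0.13) in KO against 0.12 (SE 0.18) on the brightest. Rad51c itself had a difference of -0.093 (SE 0.10) and Rad51ap1, which aids strand invasion, one of 0.0071 (SE 0.07).

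On the brightest probe sets the Fanconi genes had the narrowest range of KO changes of the 6 roles. Fanca, Fancc and Fancg encode parts of the core complex, Fancl its ubiquitin ligase, Fancm the translocase that brings it to DNA, and Fancd2 and Fanci the pair that it ubiquitinates. Of these 7 genes 0 passed in any comparison. Of all genes tested 2.44% were called in KO and 0% in HET against WT. The share was 0.264% in KO against HET and 3.04% per floxed allele. The KO changes of the 7 genes lay between -0.061 for Fanca and 0.055 for Fancc, with intervals from -0.25 to 0.27. Fancd2 had means of 9.16 ± 0.07 (SD, n = 4) in WT, 9.16 ± 0.08 (SD, n = 5) in HET and 9.17 ± 0.05 (SD, n = 5) in KO. The KO difference was -0.0079 (SE 0.08) for Fanci, -0.022 (SE 0.07) for Fancg, -0.053 (SE 0.08) for Fancl and, for Fancm, 0.037 (SE 0.07). In HET 6 of the 7 changes were positive, from -0.012 for Fancd2 to 0.073 for Fancc, where 50.7% of all genes tested were positive. In KO the further probe sets of these genes above the filter had a wider range, from -0.17 (SE 0.16) for Fancg to 0.21 (SE 0.17) for Fancd2. The latter was the only positive one in KO. Of the 9 further probe sets of these genes above the filter 7 were negative in HET, from -0.065 for Fancc to -0.15 for Fancm. The other 2 were those of Fancd2, at 0.047 (SE 0.16) and 0.40 (SE 0.17, unadjusted p = 0.0303, limma adjusted p = 1.00 over all probe sets), the latter the only further probe set of any member with an unadjusted p under 0.05 in HET. Fanca had the smallest p among members in KO against HET, with values of 10.09, 10.16, 9.95, 9.85 and 10.04 in HET and 9.77, 9.72, 9.88, 10.01 and 10.01 in KO. These ranges overlap, and the change was -0.13 (SE 0.08, limma adjusted p = 0.996).

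Of the MRN complex, Nbn had a negative change and Mre11a and Rad50 positive ones in KO. Nbn, the subunit that recruits ATM, read 9.99, 9.99, 10.18 and 10.13 in WT, 10, 10.10, 10.08, 9.90 and 10.01 in HET and 10.02, 10.13, 9.97, 9.86 and 9.92 in KO. Its change was -0.10 (SE 0.07, limma adjusted p = 0.67) in KO and -0.056 (SE 0.07) in HET, within overlapping ranges. The nuclease gene Mre11a read 10.10, 10.13, 10.55, 10.02 and 10.07 in KO against 9.97 to 10.19 in WT, with KO 3 the only KO array above the WT range, and its change was 0.12 (SE 0.10). Rad50, the tether of the complex, had a difference of 0.092 (SE 0.10), also with KO 3 highest at 10.32. Rpa1, the large subunit of RPA, had one of -0.0043 (SE 0.06).

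Among the damage kinases the KO differences of Atm, Atr and Chek1 were at most 0.034 in size. Atm, the kinase that answers breaks, had means of 11.38 ± 0.02 (SD, n = 4) in WT, 11.41 ± 0.07 (SD, n = 5) in HET and 11.37 ± 0.07 (SD, n = 5) in KO. Chek1, the kinase below ATR, had a difference of -0.016 (SE 0.07) and Topbp1, an activator of ATR, one of -0.027 (SE 0.08). That of Atr was 0.034 (SE 0.12), with KO 3 highest at 9.79. Chek2, the kinase below ATM, read 8.93, 8.99, 9.04 and 9.43 in WT, 9.13, 8.85, 9.12, 9.34 and 9.42 in HET and 9.17, 9.31, 9.17, 9.40 and 9.46 in KO. The 3 female WT arrays lay below all KO arrays, while WT 4 lay above 4 of the 5. The share of all genes with such a split was not computed here either. The KO change of Chek2 was 0.15 (SE 0.12, limma adjusted p = 0.715), and it was 0.27 without WT 4, 0.074 without KO 4 and 0.30 among females.

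Of the enzymes that take joined DNA apart, Blm, the helicase mutated in Bloom syndrome, had a KO difference of -0.034 (SE 0.09) and Eme1, the partner of the MUS81 nuclease, one of 0.053 (SE 0.10). Mus81 read 9.33, 9.27, 9.40 and 9.71 in WT, 9.52, 9.53, 9.44, 9.38 and 9.43 in HET and 9.27, 9.29, 9.60, 9.14 and 9.29 in KO. WT 4 was the highest WT array and KO 3 the highest KO array. The change was -0.12 (SE 0.11, limma adjusted p = 0.726), and it was 0.021 without WT 4 and 0.042 among females. On a second, dimmer probe set Mus81 read 7.42, 7.42, 7.38 and 7.77 in WT and 7.09, 6.95, 7.34, 7.21 and 7.42 in KO, with 4 of the 5 KO arrays below all WT arrays. That change was -0.31 (SE 0.12, unadjusted p = 0.0254, adjusted p = 0.589 over all probe sets). Over all members 28 further probe sets, of 18 genes, lay above the filter. Of these 0 were called in KO against WT in limma and 2 had an unadjusted p under 0.05 (those of Rad54l and Mus81). Among all genes tested, each on its brightest probe set, 2.44% were called and 13.1% had an unadjusted p under 0.05. Of the 28, 18 had the sign of the brightest probe set of their gene. In HET against WT 8 of the 28 had that sign and 20 the opposite one.

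**Figure D3:**
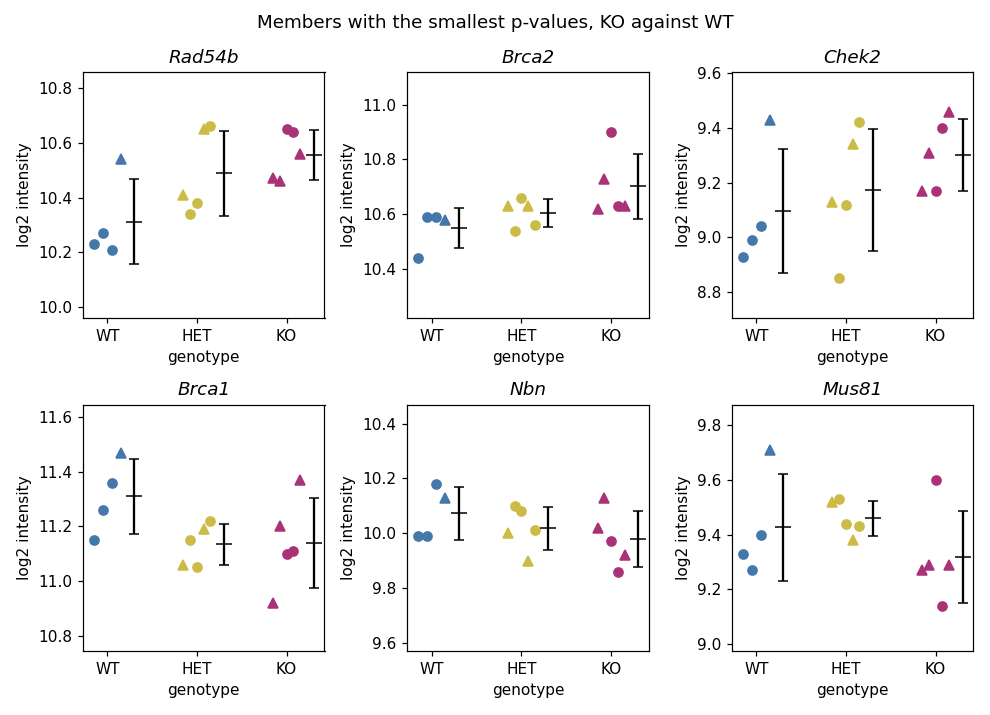
Log2 intensity on each array is plotted by genotype for the 3 positive (top) and 3 negative (bottom) members with the smallest p in KO against WT. Circles are female and triangles male mice, the bar gives mean and SD, and every panel spans the same height of 0.9 log2 units from a different base. Only for Brca2 do the KO and WT arrays not overlap, and in Rad54b, Chek2, Brca1 and Mus81 the male WT array is the highest of the WT arrays.

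With 1 floxed allele no repair gene passed the test either. In HET against WT limma called 0 of 29 members and 0 genes (0%) in all, with 0 members and 2.74% of all genes at an unadjusted p under 0.05. The changes ran from -0.18 for Brca1 to 0.17 for Rad54b, with 18 of 29 positive (50.7% of all genes), a median of 0.020 and a median size of 0.046, against 0.056 over all genes tested. With the mean of all probe sets of a gene 11 of 29 were positive. Beside Brca1, Rad54b and Nbn, the members with the smallest p of each sign were Topbp1 at -0.077 (SE 0.08), Rad54l at 0.064 (SE 0.05) and Fancm at 0.059 (SE 0.07). Topbp1 ran from 11.46 to 11.68 in WT and from 11.32 to 11.61 in HET, Rad54l from 9.97 to 10.16 and from 10.08 to 10.20, and Fancm from 9.61 to 9.68 and from 9.64 to 9.81. All these ranges overlap. All 29 intervals lay within 1.5-fold, as did 94.3% of those of all genes. In KO against HET limma called 0 of 29 members, against 0.264% of all genes, with 0 members and 6.39% of all genes at an unadjusted p under 0.05. The changes ran from -0.15 for Mus81 to 0.13 for Rad50, with 14 of 29 positive (47.3% of all genes), and all 29 intervals lay within 1.5-fold (93.5% of all genes). On the brightest probe sets no member separated HET from WT or KO from HET on every array. Of all genes 1.03% had HET above WT, 0.469% HET below WT, 0.606% KO above HET and 0.822% KO below HET. The change per floxed allele was called for 0 of 29 members, against 3.04% of all genes, 2 members and 14.2% of all genes had an unadjusted p under 0.05, and 15 of 29 were positive (49.2% of all genes).

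Sex was a term of the fits, and 16 of 29 members had a positive change in males (51.1% of all genes). In male against female mice limma called 0 of 29 members, against 0.0293% of all genes, with 0 members and 6.38% of all genes at an unadjusted p under 0.05. The smallest p belonged to Fancl, at -0.14 (SE 0.07, adjusted p = 0.765), and the largest change to Palb2, at 0.22 (SE 0.11, adjusted p = 0.769).

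**Figure D4:**
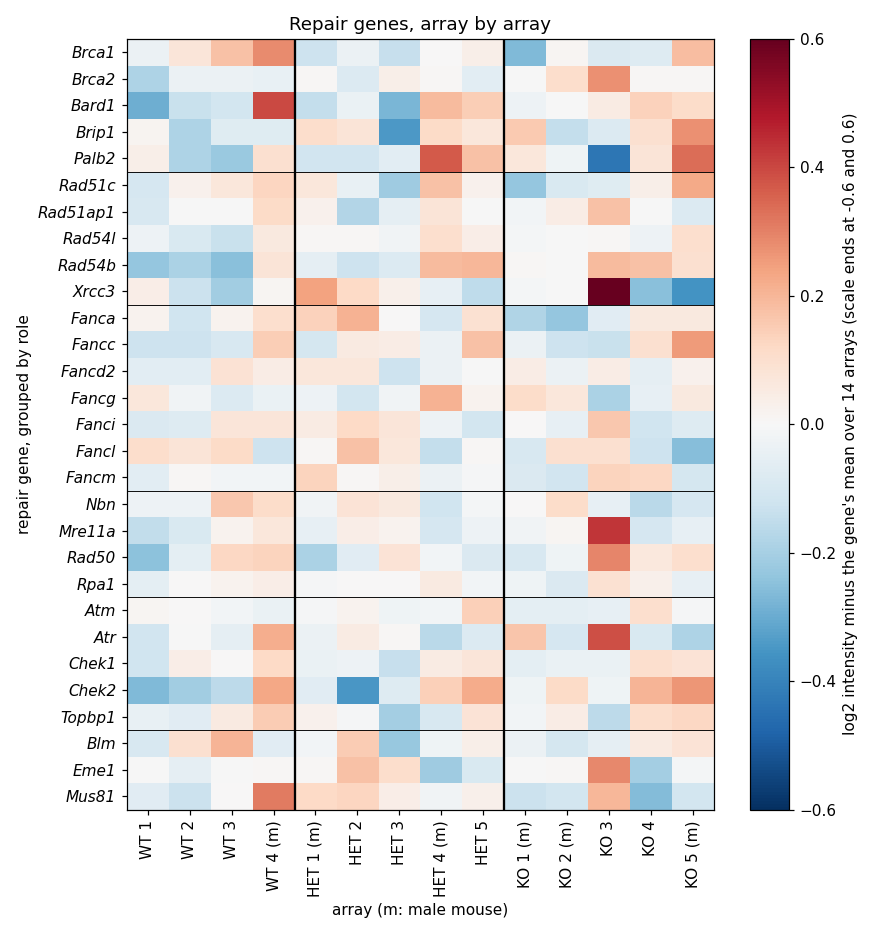
Each cell gives the log2 intensity of a repair gene (rows, grouped by role) on 1 array (columns, grouped by genotype) minus the mean of that gene over the 14 arrays, with red higher and blue lower. No block of rows follows the genotype. KO 3 holds the highest values of Xrcc3 (10.06), Mre11a (10.55) and Atr (9.79), and WT 4 those of Bard1 (8.92) and Mus81 (9.71).

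The mean over the 29 members differed more between mice of 1 genotype than between genotypes. It was 10.09, 10.11, 10.15 and 10.25 in WT, 10.16, 10.18, 10.12, 10.18 and 10.20 in HET and 10.13, 10.14, 10.24, 10.16 and 10.20 in KO. The highest arrays were WT 4 and KO 3, and all HET and KO values lay inside the WT range. The group means were 10.15 ± 0.07 (SD, n = 4) in WT, 10.17 ± 0.03 (SD, n = 5) in HET and 10.17 ± 0.04 (SD, n = 5) in KO. The mean fitted change was 0.017 in KO and 0.014 in HET against WT, below the pooled SD of 0.050 between arrays of 1 genotype. WT 4 moved this value most, to 0.068 in KO without it, and females alone gave 0.084. In WT 4, 25 of 29 members (86.2%) lay above the mean of the other WT arrays, as did 64.1% of all genes tested. In KO 3, 14 of 29 members (48.3%) lay above the mean of the other KO arrays, as did 59.6% of all genes tested. The high mean of KO 3 was thus not shared by most members. The part of sex and of WT 4 in these values was not tested. Without KO 3 and WT 4 together, a choice made after the data were seen, the mean change was 0.039 in KO, and 0 members were called.

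Repair of breaks by recombination is tied to replicating cells, so genes of replication and division were set beside the members. Of 38 tested genes of DNA replication and G1/S, 27 of mitosis and G2/M and 12 of non-homologous end joining, 0 were called by limma in KO against WT or in HET against WT, with 3, 1 and 1 at an unadjusted p under 0.05 in KO and 0 in HET. Of all genes tested 2.44% were called in KO and 0% in HET, and 13.1% and 2.74% had an unadjusted p under 0.05. The mean KO changes of the lists were -0.0074, 0.022 and 0.025, beside 0.017 for the members. In HET against WT they were -0.0070, -0.027 and -0.0031, with 20 of the 27 mitosis genes negative and 7 positive (50.7% of all genes were positive). In KO against HET 22 of those 27 were positive (47.3% of all genes), with a mean of 0.049. The replication list had means of 11.65 ± 0.06 (SD, n = 4) in WT, 11.65 ± 0.02 (SD, n = 5) in HET and 11.65 ± 0.04 (SD, n = 5) in KO. The end joining list was highest in KO 3 (9.97) and WT 4 (9.94), the arrays in which the mean of the members was also highest.

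**Figure D5:**
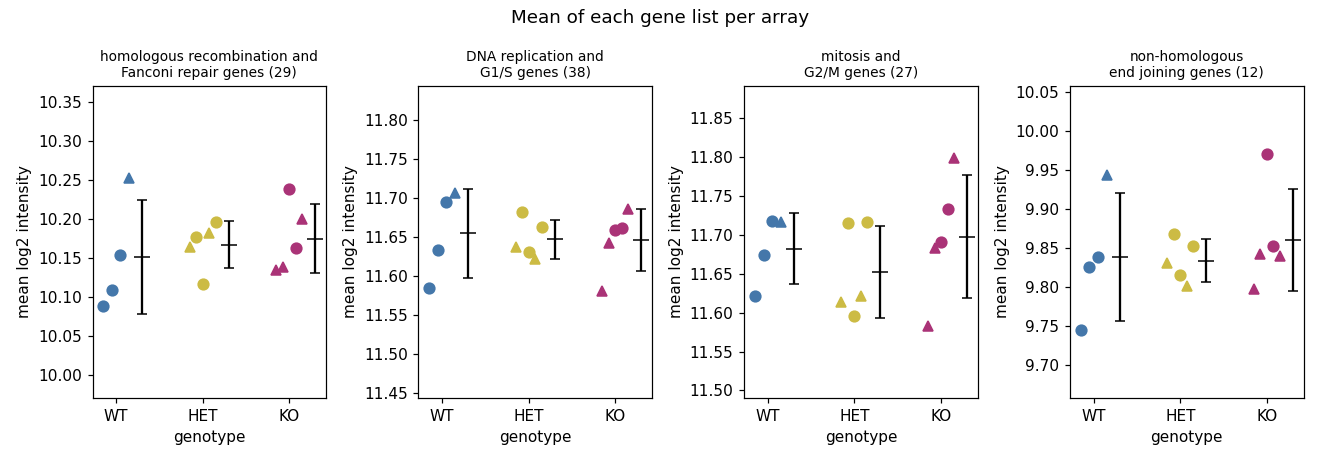
The mean log2 intensity over the tested genes of each list (their number in brackets) is plotted for each array by genotype. Circles are female and triangles male mice, the bar gives mean and SD, and each panel spans 0.4 log2 units from a different base. In all 4 lists the genotypes overlap, and in the repair genes WT 4 (10.25) and KO 3 (10.24) are highest.

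A wider list of other recombination, Fanconi and damage signalling genes, among them Rad51b, Rad52, Exo1, Fancb and Usp1, gave the same count. Of its 61 genes 59 had a named probe set and 57 were tested. Limma called 0 higher and 0 lower in KO, in HET, in KO against HET and per floxed allele. Of all genes tested 2.44%, 0%, 0.264% and 3.04% were called in these comparisons. In KO against WT 23 changes (40.4%) were positive and 34 negative, with a median of -0.014, where 49.0% of all genes were positive. An unadjusted p under 0.05 was found for 5 genes, or 8.77%, against 13.1% of all genes. Recql5, a helicase that limits recombination, read 9.27, 9.12, 9.50 and 9.40 in WT, 9.41, 9.32, 9.16, 9.02 and 9.25 in HET and 8.87, 8.98, 9.13, 8.93 and 9.00 in KO. Of its KO arrays 4 of 5 lay below all WT arrays, and KO 3 lay just inside the WT range. Its change was -0.33 (SE 0.10, 79.5% of WT, limma adjusted p = 0.11) in KO and -0.086 (SE 0.10) in HET. Rad17, the loader of the checkpoint clamp, had a difference of -0.18 (SE 0.07, adjusted p = 0.302), and Parpbp, an inhibitor of recombination, one of 0.26 (SE 0.11, adjusted p = 0.312), with KO 1 and KO 3 highest at 11.53 and 11.52.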

How the data were processed

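The authors' values are on a log2 scale, and the submitters' processing notes name RMA without a version. RMA equalises the arrays' distributions, so a shift of most genes would not be seen, and it compresses changes of dim probe sets. Of 45101 probe sets 64 are controls, 34945 name 1 gene, 932 several and 9160 none. Each gene took its brightest single-gene probe set, and 10225 genes with a mean above 6.43, the median over probe sets other than controls, were tested.

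Groups and sex came from the labels, by which each mouse was sorted on its own. Comparisons used lmFit and eBayes of limma 3.58.1 (R 4.3.3) over 14 arrays, with group and sex, or floxed alleles and sex, and Benjamini-Hochberg adjustment over all genes tested at 0.05, tested on simulated data. The simulated noise was independent between genes, so shifts shared by many genes of an array were not covered. At most 58 values were identical between 2 arrays.

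The members and lists were chosen with earlier results of these data known. Members given in full are the 3 of each sign with the smallest p in KO and in HET against WT, and of the wider list the 3 with the smallest p in KO. Other values were picked after they were seen. Alternatives were no filter, the mean of all probe sets, repeated quantile normalisation, median centring, no sex term, females only, array weights, only the groups compared, the replicate block and each array left out. Leaving out KO 3 and WT 4 together was added after the data were seen.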

Additional observations from a re-analysis of the deposited data

Results flagged for a closer look

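Of 90 groups of arrays tested, 29 members and their mean in 3 genotypes, 6 held 1 array far from the others of its genotype, by a gap above Dixon's 95% critical value, which chance alone passes in about 1 of 20 groups. Brca2 was low in WT 1, at 10.44 against 10.58 in the nearest WT array. Brip1 was low in HET 3, at 8.54 against 8.95. In WT 4, Fancc was high, at 9.18 against 8.94, and Fancl low, at 10.66 against 10.86. Mre11a was high in KO 3, at 10.55 against 10.13, and Atm was high in KO 4, at 11.49 against 11.38.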

How the results depend on the processing

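In KO against WT, HET against WT and KO against HET the count of called members was 0 in the main limma fit and in all 24 alternatives, and for the change per floxed allele in all 23. The smallest adjusted p of a member over these alternatives was 0.111 in KO against WT, 0.639 in HET against WT, 0.166 in KO against HET and 0.10 per floxed allele. Over all genes the count called in KO against WT was 249, and it ran from 75 without KO 3 and WT 4 to 336 without the sex term. In KO against HET it was 27 and ran from 0 to 72 with array weights, per floxed allele 311 and from 85 without KO 3 and WT 4 to 413 without the sex term, and in HET against WT 0 and up to 6 with array weights. The mean change over the members in KO against WT moved beyond the spread between arrays for females only, to 0.084, and without WT 4, to 0.068, and with each array left out in turn it ran from -0.012 to 0.068. In the fit with the replicate number as a block 0 members were called and the mean change was 0.0076 in KO and 0.0058 in HET, and the labels do not say that the numbers pair mice. Of 13 same-numbered pairs 9 had a correlation of deviations over 0.1, the lowest being -0.17, and 8 of 14 arrays correlated best with their own number. The median was 0.14 in same-numbered pairs and -0.056 in other pairs of different genotype. The highest correlation was 0.38 in same-numbered pairs and 0.58 in the other pairs. Of all 29 members, 13 changed sign in HET with the mean of all probe sets, 9 in KO against HET with array weights and also 9 without KO 3, and 8 in KO against WT without KO 3 and 7 without WT 4. Among the members named by the rule, signs turned for Fancm in HET with the mean of all its probe sets (-0.053), for Nbn in HET among females (0.010), and for Mus81 in KO among females (0.042) and without WT 4 (0.021), where leaving out 1 array gave -0.25 to 0.021. The cause was not tested. With the block 198 genes in all were called in KO against WT. The number of arrays limits the precision to changes of about the width of the intervals given.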
